A study of Rattus norvegicus with 25 samples.

Results

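A set of 40 genes of the interferon response was followed in hippocampal RNA of male Sprague-Dawley rats after experimental brain injury. They were chosen by gene symbol, as interferon-induced genes and their regulators, with earlier results of these data known. All 40 were among the 34322 rows of the count table, and all 40 were among the 21064 genes tested. The rats were 6 to 7 weeks old, and polyadenylated RNA was sequenced from 5 groups of 5 libraries each. Vehicle-sham rats had a sham procedure and vehicle. The other 4 groups had controlled cortical impact (CCI), a piston-driven contusion used as a model of traumatic brain injury. Vehicle-CCI rats received vehicle, TD-CCI rats received thymus, TCF-CCI rats thymus cytosolic factor and TNF-CCI rats thymus nuclear factor. TNF stands here for that supplement and not for the cytokine tumour necrosis factor. The labels give neither the dose nor the time after injury, and there was no sham group with a supplement. Each library is bulk hippocampus, in which fewer cells of a type and less RNA per cell cannot be told apart. Whether a library stands for 1 animal is not stated in the labels, and p-values here reflect only the spread among libraries.

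Interferons are secreted proteins that cells release after sensing foreign or misplaced nucleic acid, and they act on neighbouring cells through receptors coupled to Janus kinases. The kinases activate STAT proteins. For type I interferons, a complex that holds STAT2 and IRF9 binds the interferon-stimulated response element (ISRE) in DNA, while type II interferon acts mainly through the gamma-activated site (GAS). The genes so induced encode nucleic acid sensors, proteins that block viral replication, guanosine triphosphatases (GTPases) that act on intracellular membranes, and regulators that amplify or end the response. In brain, microglia, astrocytes and neurons can all respond to interferon, and the response is known in ageing and after injury without infection.

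The letters of these elements could be read in the RefSeq promoter table, which holds 250 bases before to 50 bases after each annotated start on the rat assembly GRCr8. It had an entry for 32 of the 40 genes. Dhx58, Cgas, Zbp1, Isg15, Usp18, Mx2, Ifit2 and Rtp4 were not analysed for sequence here. An ISRE core, searched as GAAANNGAAA on both strands, stood in 19 of the 32 (59.4%), against 3.92% of all 33469 promoters of that length. A GAS core, searched as TTCNNNGAA, which reads the same on both strands, stood in 10 of the 32 (31.2%), against 8.87% of all. Both stood in 6 genes, Parp14, Oas1a, Bst2, Ifitm3, Igtp and Irgm, and the motifs overlapped in 1 of them. A further 9 genes held neither. Of the 19 genes with an ISRE core, 14 had one within 100 bases before the start. A match is a description of letters and was not tested for binding.

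The 250 bases before the start are shown for the 2 genes of this set that rose in the TNF-CCI group and are in the promoter table with a match, Ifitm3 (chr1:205541759-205542008, minus strand) and Ifi47 (chr10:33798494-33798743, plus strand), both on GRCr8. All sequences run 5′ to 3′ along the gene. Capitals mark an ISRE core followed by a GAS core in Ifitm3 and 2 GAS cores in Ifi47.
Ifitm3: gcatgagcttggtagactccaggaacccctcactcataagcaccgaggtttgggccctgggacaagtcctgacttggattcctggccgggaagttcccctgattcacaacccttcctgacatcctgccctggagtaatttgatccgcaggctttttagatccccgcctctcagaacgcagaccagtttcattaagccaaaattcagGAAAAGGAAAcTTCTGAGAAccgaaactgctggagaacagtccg
Ifi47: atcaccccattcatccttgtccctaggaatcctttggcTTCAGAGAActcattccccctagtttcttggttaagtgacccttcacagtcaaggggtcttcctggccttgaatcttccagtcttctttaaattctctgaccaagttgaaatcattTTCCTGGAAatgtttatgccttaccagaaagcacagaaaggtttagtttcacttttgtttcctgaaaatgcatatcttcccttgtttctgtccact
In Ifitm3 the elements lay side by side close to the start, whereas in Ifi47 no ISRE core was found in the window.

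Shorter stretches around the ISRE core (capitals) are shown for 11 further genes of different function, chosen with their levels known. The choice leaves out other genes with an ISRE core, and a link of these letters to the levels was not tested. They lie at chr1:205800063-205800112 (minus strand), chr1:241527262-241527311 (plus), chr12:41330405-41330460 (plus), chr6:48788238-48788287 (minus), chr11:78408038-78408087 (plus), chr11:78320215-78320244 (plus), chr16:18255063-18255118 (minus), chr2:234005676-234005725 (plus), chr2:233910923-233910972 (plus), chr10:33742583-33742632 (minus) and chr10:57415904-57415953 (plus) of GRCr8, in the order printed.
Irf7: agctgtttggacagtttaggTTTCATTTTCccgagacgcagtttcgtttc
Ifit3: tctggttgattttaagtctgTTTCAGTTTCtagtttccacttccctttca
Oas1a: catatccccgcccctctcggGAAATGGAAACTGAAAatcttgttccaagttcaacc
Rsad2: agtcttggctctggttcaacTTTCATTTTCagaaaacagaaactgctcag
Parp14: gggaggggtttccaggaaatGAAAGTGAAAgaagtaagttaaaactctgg
Dtx3l: ggagggacctcccgggaaacGAAACTGAAA
Bst2: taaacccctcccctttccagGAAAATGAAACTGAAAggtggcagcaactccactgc
Gbp2: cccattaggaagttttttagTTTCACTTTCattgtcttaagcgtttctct
Gbp5: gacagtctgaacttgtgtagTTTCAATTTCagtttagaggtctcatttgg
Irgm: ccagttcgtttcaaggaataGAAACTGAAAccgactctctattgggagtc
Xaf1: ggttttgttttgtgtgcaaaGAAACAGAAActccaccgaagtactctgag
In Oas1a and Bst2 the capitals run on over 16 bases because 2 overlapping cores share their middle GAAA. In Irf7, Ifit3, Rsad2, Gbp2 and Gbp5 the core is written on the other strand and reads TTTCNNTTTC. The core of Dtx3l lies after its annotated start.

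**Figure D1:**
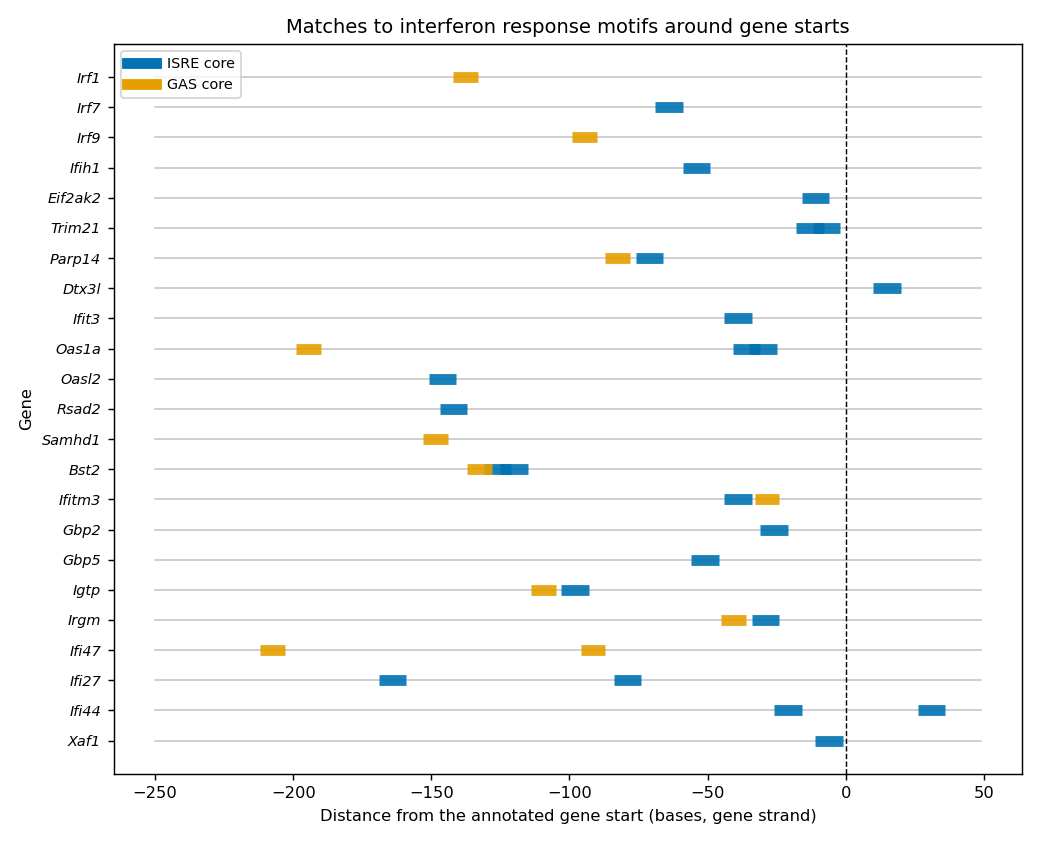
Position of ISRE cores (blue) and GAS cores (orange) in the RefSeq promoters of the 23 genes with at least 1 match. The horizontal axis is the distance from the annotated gene start in bases along the gene, the dashed line marks the start, and each grey line is the window searched. Most ISRE cores lie within 100 bases before the start.

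The libraries held 27290179 to 44899467 counts. Mitochondrial ribosomal RNA took 2.18% to 25.6% of the counts, with Vehicle-sham 2 (25.6%) and Vehicle-sham 3 (17.3%) at the top and Vehicle-sham 5 at the bottom. Vehicle-sham 2 also stood apart over all genes and was the highest of the 25 libraries in 21.8% of those tested and the lowest in 31.4%. As a check of the injury, Cd68, a lysosomal protein of phagocytes, rose in the average of the 4 injured groups by 2.28 ± 0.50 (log2, SE; edgeR adjusted p = 0.0222). Gfap, the astrocyte intermediate filament, rose by 1.33 ± 0.34 (edgeR adjusted p = 0.0289). Markers of hippocampus were present in every library, with a sum of 1635 to 5782 CPM, which are counts scaled to a total of 1000000 per library after trimmed-mean normalization.

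A single sham library, Vehicle-sham 5, stood apart in the levels of the interferon response genes. It was the highest of all 25 libraries in 19 of the 40 genes, against 5.27% of all genes tested, and the highest of the 5 sham libraries in 37 of the 40, against 21.6% of all genes tested. Relative to the mean of the other 4 sham libraries, its level was 1.08-fold to 8.17-fold, with a median of 2.69-fold over the 40 genes and 1.03-fold over all genes tested. It was more than 2-fold in 30 of the 40, against 1.91% of all genes tested. Samhd1, Trim21 and Sting1 stood lowest in that order, at 1.08-fold, 1.30-fold and 1.5-fold. The genes named next were chosen after their values were seen.

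Gbp5, a guanylate-binding GTPase that acts in inflammasome activation, was at 13.4 CPM in Vehicle-sham 5 and at 2.48, 0.911, 1.31 and 1.83 CPM in Vehicle-sham 1 to 4. The 20 CCI libraries ranged from 2.06 to 9.22 CPM, so that none reached that sham library. Mx1, a dynamin-like GTPase that blocks viral nucleocapsids, was at 41.4 CPM in Vehicle-sham 5 against 4.14, 11.2, 4.43 and 4.04 CPM in the other sham libraries. The CCI libraries ranged from 3.70 to 57.5 CPM with a median of 24.9 CPM. For Mx1, 19 of the 20 CCI libraries were above those 4 sham libraries, but 4 of the 20 were above Vehicle-sham 5. Usp18, the protease that removes ISG15 from proteins and dampens the interferon receptor, was at 25.8 CPM in Vehicle-sham 5. It was at 2.81, 5.86, 3.87 and 4.34 CPM in the other sham libraries and at 2.44 to 12.4 CPM after CCI. Every CCI library was therefore below Vehicle-sham 5 for Usp18, and 14 of the 20 were above the other 4 sham libraries.

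The elevation covered every functional class. The median fold of Vehicle-sham 5 over the other sham libraries was 3.83 for the 12 antiviral effectors, 2.69 for the 8 ISG15, ubiquitin and ADP-ribose enzymes, 2.64 for the 5 interferon-inducible GTPases, 2.52 for the 5 other induced proteins, 2.41 for the 6 sensors and 2.40 for the 4 transcription factors. Over genes with an ISRE core in the promoter the median was 2.81 (range 1.30 to 8.17, 19 genes), and over those without it was 1.95 (1.08 to 6.96, 13 genes). Both ranges overlap, and Mx1, at 6.96-fold, had no ISRE core in its window. Many other genes of the pathway stood with them, by a smaller median fold. Among 54 further interferon-induced genes, Vehicle-sham 5 was the highest of the 5 sham libraries in 38 and the highest of all 25 in 11, among them Oas1b, Gbp1 and Ddx60. The median fold of the 54 was 1.73, with 19 above 2-fold. The largest was that of Cxcl10, the chemokine that draws T cells, at 13.2-fold, where the other sham libraries were at only 0.165 to 0.228 CPM. Ifitm1 went the other way and was at 0.560 CPM in Vehicle-sham 5, the lowest of the 5 sham libraries. Others did not stand out there, all at low levels. Ifit1 was at 0.118 CPM, against 1.39 CPM in Vehicle-sham 3. Cxcl9 and Cxcl11 were each at 0.088 CPM, against 0.512 and 0.683 CPM in Vehicle-sham 2.

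The interferon genes themselves were scarcely read. Of 8 interferon ligand genes in the table only Ifna1 passed the filter on low counts, at 0.203 ± 0.11 CPM (SD, n = 5) in sham and 0.266 ± 0.11 CPM (SD, n = 20) after CCI. Ifnb1 had 13 counts in all 25 libraries together and Ifng had 3. Levels this low were not sufficient to compare groups, and they do not show that the ligands were absent.

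Markers of other cells were set beside the same library. The summed level of 12 microglia and macrophage markers was 274 CPM in Vehicle-sham 5, and 174, 249, 192 and 177 CPM in Vehicle-sham 1 to 4. It was thus the highest sham library for these markers too, but in none of the 12 was it the highest of the 25 libraries, and its median fold over the other sham libraries was 1.47 with a maximum of 1.94 (Csf1r). Markers of T, B and natural killer cells summed to 4.63 CPM, the highest of the 25 libraries, within a range of 1.92 to 4.63 CPM in sham and 0.930 to 3.77 CPM after CCI. Markers of neurons summed to 7759 CPM, also the highest of the 25 libraries. Their median fold over the other sham libraries was 1.28, with a maximum of 2.29 for Syt1, a protein of synaptic vesicles, and Syt1 and the glutamate transporter gene Slc17a7 were highest of 25 there. Neutrophil and monocyte markers summed to 7.51 CPM and red cell markers to 53.9 CPM, which for red cells was the lowest of the 25 libraries. Oligodendrocyte markers summed to 10360 CPM, the lowest sham value, with 7329 to 26050 CPM after CCI. The part of these markers and of the low mitochondrial ribosomal RNA in the result was not tested.

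**Figure D2:**
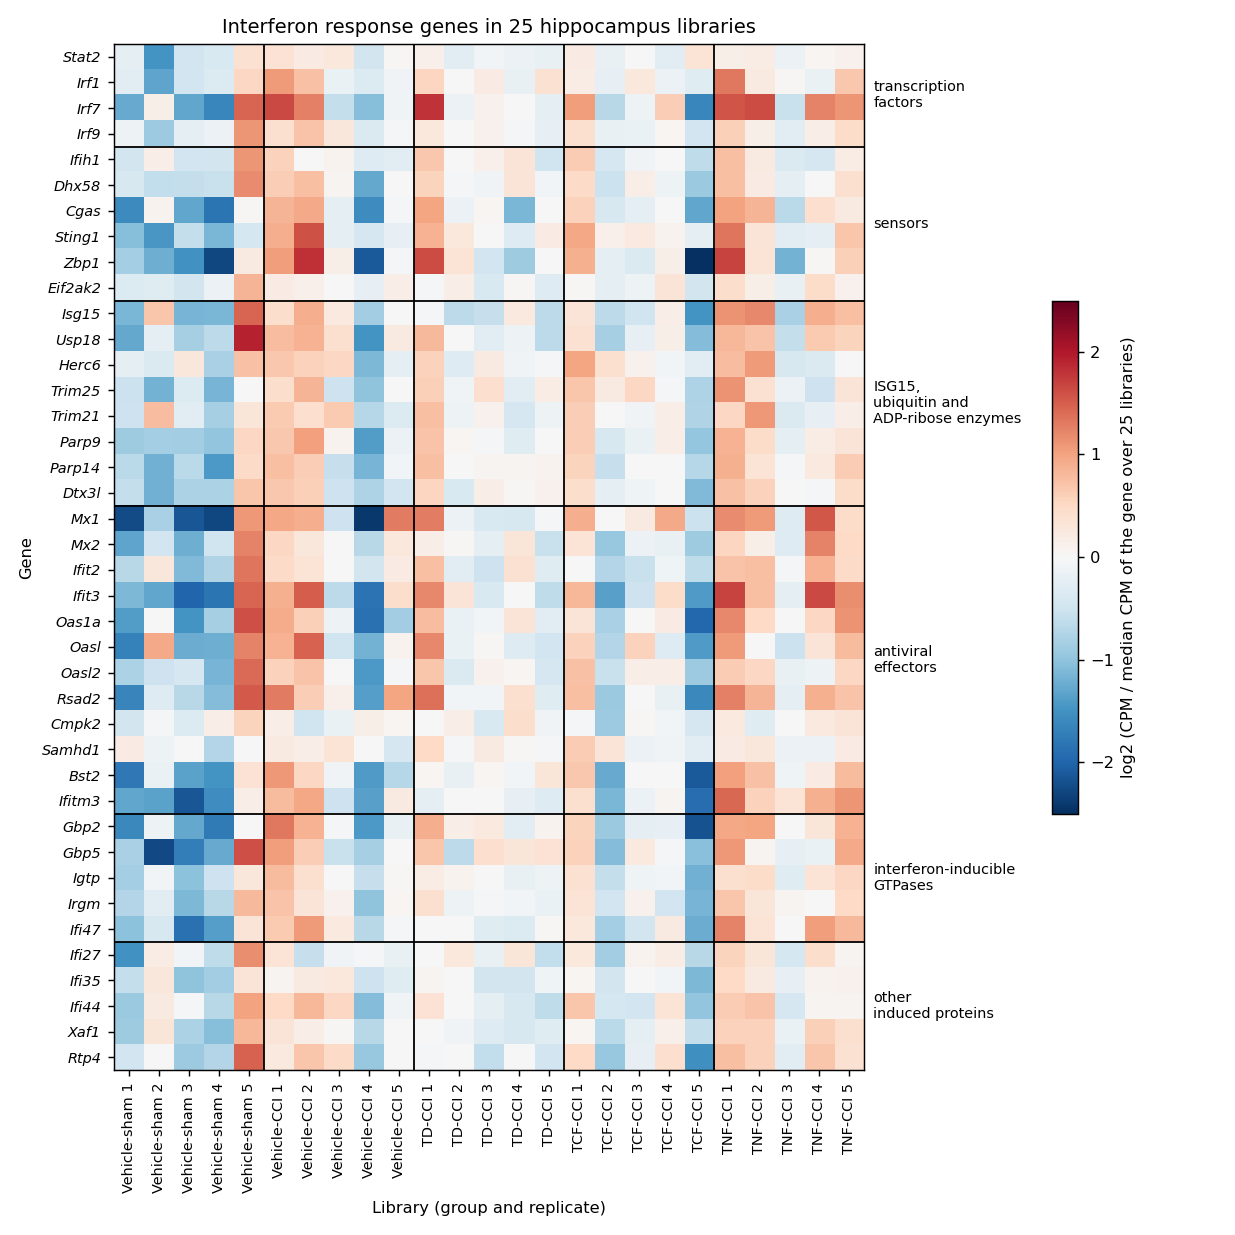
Level of each of the 40 genes (rows, by functional class) in each of the 25 libraries (columns, by group), as log2 of CPM over the gene's median CPM. Red is above and blue below that median, and values beyond 2.5 in size take the end colours. Vehicle-sham 5 is red in most rows, unlike the other 4 sham libraries, and Vehicle-CCI 4 and TCF-CCI 5 are the bluest injured libraries.

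With all 5 sham libraries in place, the calls among the 40 genes are given beside the share of all genes tested that was called. Averaged over the 4 injured groups and set against sham, 1 gene rose and 0 fell, where 2.24% of all genes tested rose and 5.92% changed in either direction (edgeR quasi-likelihood test, Benjamini-Hochberg adjusted p under 0.05). That gene was Sting1, and 1 of 40 is close to the share of all genes that rose. The median log2 fold change of the 40 was 0.25, with 33 above 0, and over all genes tested it was 0.01, with 51.2% above 0. In the TNF-CCI group, 3 rose and 0 fell, where 1.71% of all genes tested rose and 2.57% changed. They were Ifitm3, Ifi47 and Sting1. Here the median was 0.58 and all 40 fold changes were above 0, against 51.1% of all genes tested. With other tools on the same counts, DESeq2 called 4 members in the average (2.82% of all genes rose) and limma 4 (3.05%). In TNF-CCI they called 4 (2.29%) and 3 (2.57%). The DESeq2 shares given here and below are of 32609 genes with a p-value. Those of edgeR and limma are of the 21064 genes that passed the filter on low counts, so the shares are not directly comparable. In the average DESeq2 called Ifitm3, Ifi47, Trim25 and Sting1, and limma Ifitm3, Gbp2, Ifi47 and Sting1. In TNF-CCI both called Ifitm3, Gbp2 and Ifi47, and DESeq2 also Sting1. These comparisons share the sham libraries and the TNF-CCI libraries and are not independent of each other.

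In the other groups no member passed. The Vehicle-CCI comparison called 0 of the 40 and 0% of all genes tested by edgeR. At an unadjusted p under 0.05 there were 6 members (12.7% of all genes tested), DESeq2 called 1 (Sting1), where it called 0.751% of all genes, and limma called 0 members and 0% of all genes. The TD-CCI comparison likewise called 0 of the 40 and 0% of all genes, with 4 members at an unadjusted p under 0.05 (16.5% of all). DESeq2 and limma called 0 members there, and 0.748% and 0.00949% of all genes. In the TCF-CCI comparison 0 of the 40 and 0.0142% of all genes were called, 2 members had an unadjusted p under 0.05 (18.0% of all). DESeq2 and limma called 0 members, and 0.767% and 1.84% of all genes. Over sham the 40 genes had a median log2 fold change of 0.34 (Vehicle-CCI), 0.23 (TD-CCI) and 0.03 (TCF-CCI).

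Leaving out Vehicle-sham 5 raised the counts in the same comparisons. That library is singled out by its levels of these same genes, which were above the mean of the other 4 sham libraries in all 40. A rise of the fold changes was thus fixed in advance, and the counts without it are no test of an injury response. For the average of the injured groups, 11 of the 40 rose and 0 fell, where 2.5% of all genes tested rose. They were Ifitm3, Ifit3, Gbp5, Stat2, Ifi47, Mx1, Mx2, Parp9, Dtx3l, Parp14 and Sting1. For TNF-CCI, 17 of the 40 rose, where 2.35% of all genes rose: Ifitm3, Ifit2, Ifit3, Gbp5, Gbp2, Rsad2, Irgm, Ifi47, Irf1, Xaf1, Mx1, Mx2, Parp9, Dtx3l, Parp14, Bst2 and Sting1. The median log2 fold change of the 40 moved to 0.82 and 1.08, and all 40 were above 0 in both. In the other 3 groups no gene of the whole table was called without Vehicle-sham 5 (0%), members included. These counts rest on other sham libraries as well. Without Vehicle-sham 2, the count was 0 for the average (0.033% of all genes rose) and 1 (Ifitm3) for TNF-CCI (1.25%), and without both Vehicle-sham 2 and Vehicle-sham 5 it was 0 and 8, the 8 being Ifitm3, Ifit2, Gbp2, Isg15, Ifi47, Xaf1, Mx1 and Mx2, where 0.603% of all genes rose. With the mitochondrial ribosomal RNA share as a covariate both counts were 0, where 0.798% and 0.489% of all genes tested were called, and without Vehicle-sham 2 and 3 no gene of the whole table was called (0%). Counted by overlap, all 5 libraries of a group lay above all 4 sham libraries other than Vehicle-sham 5 in 19 of the 40 genes for TNF-CCI (3.55% of all genes tested), 15 for TD-CCI (3.43%), 2 for TCF-CCI (2.8%) and 1 for Vehicle-CCI (0.893%). With Vehicle-sham 5 included the counts were 2, 1, 1 and 1 (2.58%, 2.36%, 1.73% and 0.465% of all genes tested). TD-CCI libraries thus lay above those 4 sham libraries in many of the genes without a member passing the edgeR test.

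**Figure D3:**
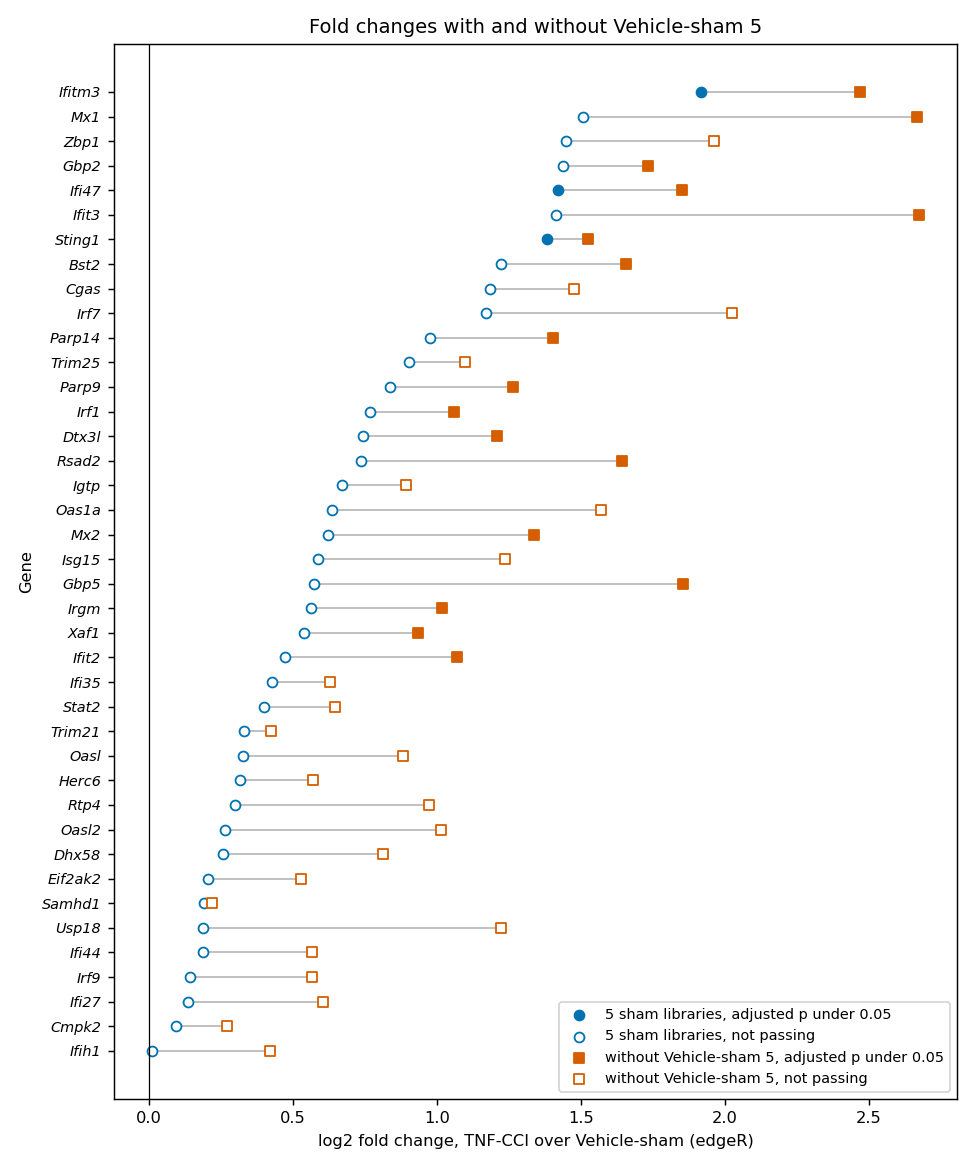
Log2 fold change of TNF-CCI over Vehicle-sham for the 40 genes, with all 5 sham libraries (blue circles) and without Vehicle-sham 5 (orange squares). Filled symbols have an edgeR adjusted p under 0.05. The number of filled symbols goes from 3 to 17, and each gene's value moves to the right. This move was fixed in advance, because Vehicle-sham 5 was above the mean of the other sham libraries in all 40 genes.

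Among the 4 transcription factors, Stat2, which acts together with IRF9, had the smallest p in the injured average. It was at 32.1, 13.6, 27.3, 29.4 and 49.3 CPM in Vehicle-sham 1 to 5. In Vehicle-CCI it was at 48.9, 43.7, 45.9, 27.8 and 38.7 CPM and in TD-CCI at 41.6, 31.7, 36.5, 34.6 and 33.4 CPM. In TCF-CCI it was at 43.6, 33.6, 38.1, 31.2 and 48.1 CPM and in TNF-CCI at 42.1, 43.4, 34.6, 39.6 and 41.0 CPM. Vehicle-sham holds both the lowest and the highest of the 25 values, so the groups overlap. The fold change of the injured average was 0.35 ± 0.17 (log2, SE; edgeR adjusted p = 0.200) with Vehicle-sham 5 and 0.60 ± 0.17 (adjusted p = 0.0303) without it. Irf1, induced by type II interferon, and Irf7, which amplifies type I interferon production, had fold changes of 0.52 ± 0.25 and 0.62 ± 0.50 (adjusted p = 0.208 and 0.472). Irf7 ranged from 2.62 CPM in TCF-CCI 5 to 28.6 CPM in TD-CCI 1, both of them injured libraries. Irf9, the DNA-binding part of the ISRE complex, was at 65.0 CPM in Vehicle-sham 5 and at 21.7 to 49.2 CPM after CCI, with a fold change of 0.02 ± 0.21 (adjusted p = 0.968).

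Per exon length, levels in RPKM (CPM per kilobase of exon) after CCI spanned from 122 for Ifi27 to 0.258 for Cgas. Ifitm3 (21.3), Eif2ak2 (12.8), Bst2 (12.0), Mx2 (11.4) and Stat2 (11.3) followed Ifi27. The SDs over the 20 injured libraries of Eif2ak2, Bst2, Mx2 and Stat2 exceed the gaps between their means, so the order of these 4 is not resolved.

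Of the 6 sensors, Sting1 separated the groups. It encodes STING, the endoplasmic reticulum protein that relays cytosolic DNA sensing to interferon production, and lies at chr18:27332119-27338371 (minus strand, mRatBN7.2). It was at 2.15, 1.65, 3.01, 2.05 and 3.33 CPM in Vehicle-sham 1 to 5. Vehicle-CCI libraries were at 8.48, 13.7, 3.89, 3.37 and 3.93 CPM, and TD-CCI libraries at 8.30, 5.45, 4.52, 3.62 and 5.24 CPM. TCF-CCI libraries were at 8.81, 4.92, 5.33, 4.82 and 3.85 CPM, and TNF-CCI libraries at 11.4, 5.64, 3.76, 3.87 and 7.32 CPM. All 20 CCI values were above all 5 sham values, which held for 0.0427% of all genes tested, although the lowest injured value (3.37 CPM, Vehicle-CCI 4) was close to the highest sham value (3.33 CPM, Vehicle-sham 5). The injured average rose by 1.29 ± 0.32 (log2, SE; edgeR adjusted p = 0.0265) and TNF-CCI by 1.38 ± 0.37 (adjusted p = 0.0460). The values were 1.45 ± 0.37 for Vehicle-CCI, 1.15 ± 0.37 for TD-CCI and 1.18 ± 0.37 for TCF-CCI (adjusted p = 0.148, 0.178 and 0.165). Without Vehicle-sham 2 the injured average was 1.21 with an adjusted p of 0.0986, and without Vehicle-sham 5 it was 1.43 with an adjusted p of 0.0208. It also missed the threshold without Vehicle-sham 4 (adjusted p = 0.0502), and the TNF-CCI value missed it without any 1 of 12 libraries, with adjusted p of up to 0.169.

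Cgas makes the cyclic dinucleotide that activates STING. It was the lowest of the 40 genes per exon length, at 0.258 RPKM after CCI, with a fold change of 0.88 ± 0.39 (adjusted p = 0.168). Zbp1, a sensor of left-handed nucleic acid that can trigger necroptosis, had the next lowest level, at 0.450 RPKM, and a fold change of 1.26 ± 0.54 (adjusted p = 0.151). It spanned 0.299 CPM in TCF-CCI 5 to 6.10 CPM in Vehicle-CCI 2. The RNA sensors did not pass either. Ifih1, a helicase that senses long double-stranded RNA, had a fold change of -0.04 ± 0.24 (adjusted p = 0.933), and its relative Dhx58 one of 0.12 ± 0.28 (adjusted p = 0.834). Eif2ak2, the kinase that halts translation on binding double-stranded RNA, was at 35.3 to 66.7 CPM after CCI and at 87.4 CPM in Vehicle-sham 5.

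Among the 8 ISG15, ubiquitin and ADP-ribose enzymes, Trim25, the ubiquitin ligase that modifies RIG-I, had the smallest p. It was at 3.74, 2.39, 4.25, 2.41 and 5.45 CPM in Vehicle-sham 1 to 5. In Vehicle-CCI it was at 7.30, 9.72, 3.79, 2.70 and 5.41 CPM and in TD-CCI at 8.22, 5.10, 7.22, 4.50 and 6.14 CPM. In TCF-CCI it was at 8.71, 6.28, 7.75, 5.33 and 3.15 CPM and in TNF-CCI at 11.7, 7.04, 4.89, 3.79 and 6.78 CPM. In all, 11 of the 20 CCI libraries were above every sham library, and each CCI group also held values within the sham range. The injured average was 0.77 ± 0.28 above sham (log2, SE; adjusted p = 0.0893). Parp9 and Dtx3l form a complex that adds ADP-ribose and ubiquitin to histones and viral proteins. Their fold changes were 0.65 ± 0.30 and 0.47 ± 0.27 (adjusted p = 0.173 and 0.294), and 1.07 ± 0.30 and 0.93 ± 0.26 without Vehicle-sham 5 (adjusted p = 0.0311 and 0.0319). The exons of Parp9 and Dtx3l overlap by 70 bases on opposite strands, and the strand setting of the counts is not given in the sources used here. Parp14, a further ADP-ribosyltransferase, had 0.70 ± 0.28 with (adjusted p = 0.126) and 1.13 ± 0.28 without that library (adjusted p = 0.0208). Isg15, which encodes a ubiquitin-like protein, had -0.08 ± 0.37 and 0.57 ± 0.37 in the same order, and neither passed (adjusted p = 0.913 and 0.349). Usp18, Herc6 and Trim21 had -0.15, 0.22 and 0.17 with adjusted p of 0.840, 0.658 and 0.722.

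The 12 antiviral effectors held the gene of largest change in TNF-CCI. Ifitm3, a membrane protein that restricts viral entry, lies at chr1:196111026-196112135 (minus strand, mRatBN7.2) and had the second highest level of the 40 after CCI, at 21.3 RPKM. It was at 4.37, 4.27, 2.44, 3.68 and 12.1 CPM in Vehicle-sham 1 to 5. In Vehicle-CCI it was at 18.7, 21.1, 7.49, 4.17 and 12.6 CPM and in TD-CCI at 9.26, 10.8, 10.8, 9.39 and 8.56 CPM. In TCF-CCI it was at 14.1, 4.86, 9.69, 11.2 and 2.89 CPM and in TNF-CCI at 29.1, 16.1, 13.7, 19.8 and 23.2 CPM. All 5 TNF-CCI libraries were above all 5 sham libraries, as were 2.58% of all genes tested in that comparison, and every TD-CCI library was above 4 of the sham libraries and below Vehicle-sham 5. TNF-CCI rose over sham by 1.92 ± 0.43 (log2, SE; edgeR adjusted p = 0.0239). Without Vehicle-sham 3, Vehicle-sham 4, TNF-CCI 1 or TNF-CCI 5 the adjusted p was 0.057, 0.0633, 0.0788 or 0.0621, with 174, 0, 0 or 0 genes of the whole table called. The other values over sham were 1.25 ± 0.42 for Vehicle-CCI, 0.85 ± 0.42 for TD-CCI and 0.66 ± 0.42 for TCF-CCI (adjusted p = 0.229, 0.314 and 0.400).

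Mx1 had 1.10 ± 0.51 in the injured average (adjusted p = 0.184) and 2.26 ± 0.51 without Vehicle-sham 5 (adjusted p = 0.0177). Ifit3, a tetratricopeptide protein that binds viral RNA complexes, had 0.70 ± 0.52 (adjusted p = 0.425) and 1.96 ± 0.53 (adjusted p = 0.0274). Mx2 had 0.19 ± 0.30 (adjusted p = 0.730) and 0.91 ± 0.26 (adjusted p = 0.0340). These 3 genes passed only in the absence of that library. Bst2, which tethers budding virions, had 0.77 ± 0.38 and 1.20 ± 0.41 (adjusted p = 0.213 and 0.0676), and Rsad2, the radical enzyme viperin, had 0.36 ± 0.42 and 1.26 ± 0.41 (adjusted p = 0.635 and 0.0573). Ifit2, Oas1a, Oasl, Oasl2, Cmpk2 and Samhd1 had fold changes between -0.06 and 0.21 with all sham libraries, and none passed. The Mx, Oas, Ifitm, Gbp and immunity-related GTPase families hold near-identical copies, so that counts of one member may include reads of another. Exons of Mx2 overlap those of Tmprss2 by 56 bases on the opposite strand, and exons of Xaf1 overlap those of Fbxo39 by 93 bases on the same strand.

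Among the 5 interferon-inducible GTPases, Ifi47 was the one that passed in TNF-CCI, although Gbp2 had a fold change of like size. Ifi47 is an immunity-related GTPase of the kind that attacks the membranes around intracellular pathogens, at chr10:33297618-33305248 (plus strand, mRatBN7.2). It was at 2.32, 3.53, 1.28, 1.79 and 5.89 CPM in Vehicle-sham 1 to 5. In Vehicle-CCI it was at 7.39, 9.81, 5.53, 2.90 and 4.57 CPM and in TD-CCI at 4.67, 4.72, 3.82, 3.71 and 4.78 CPM. In TCF-CCI it was at 5.63, 2.61, 3.42, 5.48 and 1.99 CPM and in TNF-CCI at 11.1, 5.98, 4.69, 9.73 and 8.25 CPM. In TNF-CCI, 4 of the 5 libraries were above every sham library and the fifth was above all but Vehicle-sham 5. TNF-CCI rose over sham by 1.42 ± 0.37 (log2, SE; edgeR adjusted p = 0.0400). The threshold was missed without any 1 of Vehicle-sham 1 to 4, TNF-CCI 1, TNF-CCI 4 or TNF-CCI 5, with adjusted p of 0.0515 to 0.122. Vehicle-CCI was at 1.03 ± 0.37, TD-CCI at 0.55 ± 0.37 and TCF-CCI at 0.37 ± 0.37 (adjusted p = 0.248, 0.473 and 0.592). Gbp2, a guanylate-binding protein, had 1.44 ± 0.45 in TNF-CCI (edgeR adjusted p = 0.0770, with a call by DESeq2 and limma) and 1.73 ± 0.48 without Vehicle-sham 5 (adjusted p = 0.0418). Gbp5 went from 0.57 ± 0.54 to 1.86 ± 0.43 in TNF-CCI (adjusted p = 0.606 and 0.0251), the largest move of this class. Igtp and Irgm had 0.67 ± 0.27 and 0.56 ± 0.32 there (adjusted p = 0.163 and 0.338).

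The 5 other induced proteins had the smallest median fold change of the 6 classes, 0.00 on the log2 scale. Ifi35, a leucine zipper protein induced by interferon, had the smallest p of them. It was at 3.27, 6.03, 2.48, 2.74 and 6.19 CPM in Vehicle-sham 1 to 5. In Vehicle-CCI it was at 5.21, 5.78, 5.95, 3.47 and 4.04 CPM and in TD-CCI at 5.18, 4.97, 3.61, 3.62 and 4.61 CPM. In TCF-CCI it was at 5.13, 3.61, 4.99, 4.75 and 2.29 CPM and in TNF-CCI at 6.98, 5.84, 4.32, 5.30 and 5.38 CPM. The CCI libraries lay almost wholly within the sham range, with 1 of the 20 above it, and the fold change of the injured average was 0.19 ± 0.21 (adjusted p = 0.597). Ifi27, a small mitochondrial membrane protein, had the highest level of the 40 per length, at 130 RPKM in sham and 122 RPKM after CCI, and a fold change of -0.09 ± 0.26 (adjusted p = 0.865). Ifi44, Xaf1 and Rtp4 had 0.00 ± 0.28, 0.11 ± 0.23 and -0.09 ± 0.32 (adjusted p = 0.995, 0.800 and 0.883).

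**Figure D4:**
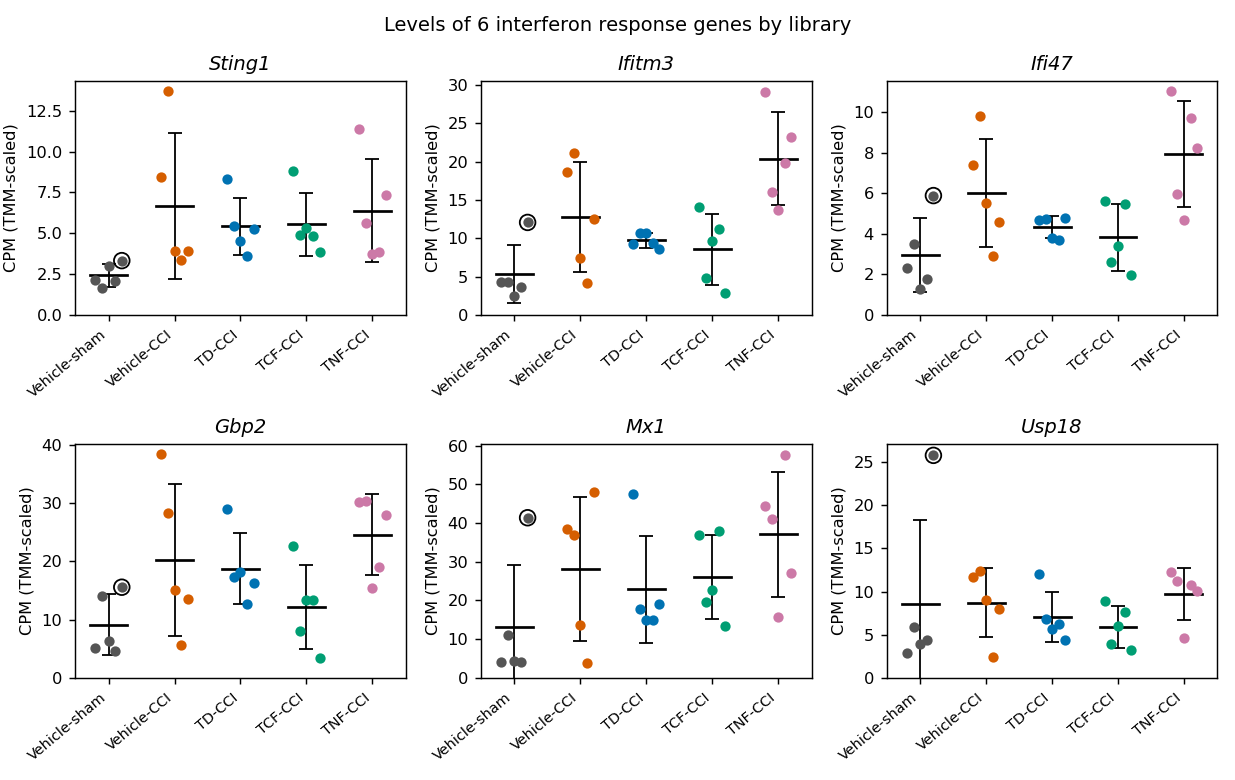
CPM of 6 genes in each library by group, with the group mean (line) and SD (bar, n = 5, not drawn below 0). The ringed point is Vehicle-sham 5. Sting1 is the gene whose 20 injured libraries all lie above sham, whereas for Usp18 all injured libraries lie below the ringed point.

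The supplements were compared with vehicle among injured rats, which asks whether a supplement altered the response. None of the 40 passed in any of the 3 comparisons, in which 0% of all genes tested were called. There were 0 members at an unadjusted p under 0.05 in each, against 1.75% of all genes for TD-CCI, 1.44% for TCF-CCI and 3.46% for TNF-CCI. DESeq2 and limma called 0 members, and at most 0.00307% of all genes. The median log2 difference of the 40 from Vehicle-CCI was -0.14 for TD-CCI, -0.32 for TCF-CCI and 0.20 for TNF-CCI. For TCF-CCI, 37 of the 40 were below 0, where 44.4% of all genes were above 0. For TNF-CCI, 34 were above 0, against 49.4% of all genes. Ifitm3 was 0.67 ± 0.41 higher in TNF-CCI, 0.40 ± 0.42 lower in TD-CCI and 0.58 ± 0.42 lower in TCF-CCI (edgeR adjusted p = 1.00 in each). The errors of these differences are wide, and values that missed the threshold do not show that the supplements acted alike.

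The order of group means repeated over many of the genes. This order, and the ranks of libraries within their groups below, were counted for the 40 genes only. Whether all genes tested share them was not examined. TNF-CCI had the highest mean of the 5 groups in 32 of the 40, Vehicle-CCI in 6 and TD-CCI in 2. Vehicle-sham had the lowest mean in 22, TCF-CCI in 15 and TD-CCI in 3. The TNF-CCI libraries also held more counts than all libraries of the other groups but TD-CCI 4. Except for TNF-CCI 2, they had low mitochondrial ribosomal RNA shares as well. The part of depth and of these shares in the order was not tested. Members are not replicates of a condition, and single libraries moved most of them together. Vehicle-CCI 4 was the lowest of its group in 37 of the 40, TCF-CCI 5 in 33 and TNF-CCI 3 in 33. TCF-CCI 1 was the highest of its group in 33, TD-CCI 1 in 31, TNF-CCI 1 in 25 and Vehicle-CCI 1 in 21. The library numbered 1 was thus the most often highest in each CCI group. It also had the highest sum of microglia and macrophage markers there, at 516, 505, 713 and 768 CPM in the same order. The labels do not say whether libraries of the same number belong together, and the main fit does not use the number.

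The same libraries differed in microglial markers. All 12 markers of microglia and macrophages were present. In the injured average 7 of them rose, with a median log2 fold change of 0.96, where 2.24% of all genes tested rose. In TNF-CCI 7 rose, with a median of 1.30, where 1.71% of all genes rose. Calls in these comparisons rest on the sham libraries. Without Vehicle-sham 2, 0.033% of all genes rose in the average, and without Vehicle-sham 2 and 3 no gene was called. The sum of the 12 markers ranged from 174 to 274 CPM in sham and from 202 to 768 CPM after CCI. It was 462 ± 221 CPM in Vehicle-CCI, 409 ± 65.4 in TD-CCI, 338 ± 127 in TCF-CCI and 517 ± 140 in TNF-CCI (SD, n = 5 each). The lowest injured libraries were TCF-CCI 5 (202 CPM), TCF-CCI 2 (232 CPM) and Vehicle-CCI 4 (259 CPM), and in these the median of the 40 genes against their own medians was -0.98, -0.57 and -0.97 on the log2 scale. The highest were Vehicle-CCI 1 (768 CPM), TNF-CCI 1 (713 CPM) and Vehicle-CCI 2 (619 CPM), with medians of 0.67, 0.81 and 0.66. Vehicle-sham 5 departed from this order, with 274 CPM and a median of 0.83. Marker sums of other cells differed between these injured libraries too. Neutrophil and monocyte markers were at 5.9, 7.7 and 7.1 CPM in TCF-CCI 5, TCF-CCI 2 and Vehicle-CCI 4. They were at 19.3, 20.4 and 22.3 CPM in Vehicle-CCI 1, TNF-CCI 1 and Vehicle-CCI 2. Astrocyte markers were at 4365 CPM in TCF-CCI 5, 4503 CPM in TCF-CCI 2, 6245 CPM in Vehicle-CCI 4 and 13280 CPM in TNF-CCI 1. Plasmacytoid dendritic cell markers, which include Bst2 itself, summed to 22.7 to 33.8 CPM in sham and 22.7 to 71.1 CPM after CCI. The part of cell numbers in the result was not tested.

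**Figure D5:**
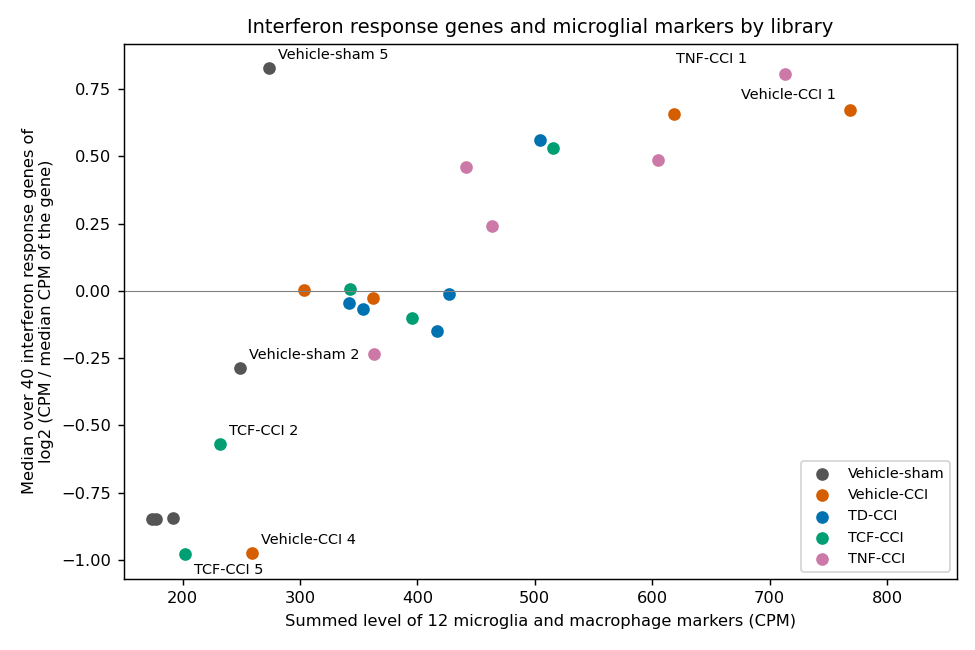
Summed CPM of 12 microglia and macrophage markers (horizontal) against the median over the 40 genes of log2 CPM over the gene's median CPM (vertical), 1 point per library, coloured by group. The 6 injured libraries with the most marker RNA (505 CPM or more) have medians above 0, the 3 with the least (259 CPM or less) have medians below 0, those between are mixed, and Vehicle-sham 5 lies far above libraries of similar marker level.

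Other genes of the pathway came from lists of ligands, receptors, kinases and STATs, inducers, inhibitors and further induced genes. Of 90 tested, 12 rose and 0 fell in the injured average, and 9 rose and 0 fell in TNF-CCI, where 2.24% and 1.71% of all genes tested rose. The median log2 fold changes were 0.34 and 0.50. Of 6 receptor genes 2 rose in the injured average: Ifngr1, the ligand-binding chain of the type II interferon receptor, by 0.87 ± 0.25 and Il10rb, shared by interferon lambda and interleukin receptors, by 0.59 ± 0.17 (edgeR adjusted p = 0.0418 and 0.0380). None of the 5 kinases and STATs passed.

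Of 16 further interferon regulatory factors and inducers 4 rose. Irf8, a factor that microglia and macrophages need, rose by 1.88 ± 0.45 (edgeR adjusted p = 0.0246), and Irf5 by 0.81 ± 0.22 (adjusted p = 0.0351). The endosomal nucleic acid receptors Tlr7 and Tlr9 rose by 0.99 ± 0.27 and 1.43 ± 0.38 (adjusted p = 0.0359 and 0.0328). Of 8 inhibitors 2 rose, Socs3, which blocks Janus kinases, by 1.93 ± 0.50 and Ptpn6, a phosphatase of blood-derived cells and microglia, by 1.31 ± 0.32 (adjusted p = 0.0311 and 0.0247). Of 54 further induced genes 4 rose: Ifitm1 by 2.10 ± 0.48, Ifitm2 by 0.77 ± 0.22, Gbp3 by 1.92 ± 0.54 and Slfn5 by 0.85 ± 0.25 (adjusted p = 0.0240, 0.0431, 0.0399 and 0.0455). Ifitm1 was at 0.731 ± 0.18 CPM in sham and 3.28 ± 2.2 CPM after CCI (SD, n = 5 and 20), and 17 of the 20 CCI libraries were above every sham library. Without Vehicle-sham 2, where 14 genes of the whole table were called, none of these 12 passed, with adjusted p of 0.0703 to 0.175. Without Vehicle-sham 5 the pathway counts were 24 for the mean and 21 for TNF-CCI, where 2.5% and 2.35% of all genes tested rose. That library was the highest of the 5 sham libraries in 57 of the 90 genes. Higher fold changes without it were thus largely built in, and these counts are no test of an injury response.

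The authors' deposited tables, which compare each injured group with the control by DESeq2, used their own fits. The authors' deposited tables called none (0) of the members in Vehicle-CCI, 1 in TD-CCI, 1 in TCF-CCI and 4 in TNF-CCI. Of the genes with an adjusted p there, 0.326%, 2.34%, 2.24% and 3.54% were called. By the authors' deposited tables Sting1 was the gene in TD-CCI and TCF-CCI, and Sting1, Ifitm3, Gbp2 and Ifi47 were those in TNF-CCI.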

How the data were processed

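Polyadenylated RNA of rat hippocampus was sequenced from 25 libraries. The authors deposited raw counts per gene for all libraries in one table with gene positions and exon lengths; per the submitters' processing notes the tools were STAR, Salmon, featureCounts and DESeq2 on mRatBN7.2, and neither their versions nor the strand setting are recorded there. The authors also deposited tables of log2 fold changes with their standard errors (read as a score column) and p-values of each CCI group against the control. The counts were tested with edgeR 4.0.16 in R 4.3.3 (trimmed-mean scaling, filterByExpr with a minimum count of 10, robust quasi-likelihood F test, 1 fit of 25 libraries with a mean per group). Benjamini-Hochberg adjustment ran over 21064 genes, with a threshold of 0.05, for 8 comparisons: 5 with Vehicle-sham and 3 with Vehicle-CCI. All adjusted p-values are from that test unless another tool is named. Rows with empty cells (7) were left out. SE is the fold change over the root of F. CPM is counts scaled to 1000000 per library, and RPKM is CPM per kilobase of exon.

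The 40 genes, the pathway lists and the marker lists were chosen with earlier results of these data known. The genes given in every library were those called in any comparison and the gene of smallest p in each of 6 classes. Cd68 and Gfap served as injury checks. Among other pathway genes those called in any comparison could be named, and exceptions are said to be chosen after their values were seen. Promoter sequences are from RefSeq (GRCr8). Alternatives were other scaling and filters, a replicate block, the mitochondrial ribosomal RNA share as a covariate, omission of libraries, only the groups compared, limma 3.58.1 (voom with quality weights) and DESeq2 1.42.0. The edgeR fit was also run on simulated counts with planted changes in TNF-CCI. No outlying sham library was simulated, so that run does not test the fit under the uneven sham libraries here. Total counts per library were 27290179 to 44899467. No pair of libraries within a group was alike to within counting noise (chi-square per degree of freedom 24.0 to 695 over 50 pairs). Same-numbered libraries of different groups were not taken as pairs: their correlations ran from -0.32 to 0.44.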

Additional observations from a re-analysis of the deposited data

Results flagged for a closer look

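In 28 of 200 sets of 5 libraries (40 genes in 5 groups), 1 library lay far from the others of its group, its gap to the nearest one being above 0.71 of the group's range. Chance gives about 1 in 20, or 10 sets, and the genes are not independent. The sham library numbered 5 was the high one in 18: Irf9 (65.0 CPM), Ifih1 (13.8), Dhx58 (13.1), Eif2ak2 (87.4), Usp18 (25.8), Parp9 (36.7), Parp14 (20.2), Dtx3l (15.3), Mx1 (41.4), Mx2 (98.9), Ifit3 (8.46), Oas1a (7.45), Oasl2 (28.4), Rsad2 (30.2), Ifitm3 (12.1), Gbp5 (13.4), Irgm (13.8) and Rtp4 (17.3). TD-CCI 1 was the high one in 8: Irf7 (28.6 CPM), Zbp1 (5.38), Parp9 (41.9), Parp14 (24.5), Mx1 (47.5), Oasl (2.45), Rsad2 (27.1) and Irgm (10.4). Its microglia and macrophage markers summed to 505 CPM, the highest of its group. TNF-CCI 3 was the low one for Usp18 (4.55 CPM) and Igtp (6.84), with 363 CPM of those markers, the lowest of its group. The part of these markers was not tested.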

How the results depend on the processing

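Counts of members are given beside counts over the whole table. For the average of the injured groups over sham, where 1 of the 40 genes and 1248 of all were called, 2 members were called with DESeq2 size factors (1340 of all), with no filter on low counts (2070), with a filter at 1 CPM (1412) and with a replicate block (1863), Ifitm3 and Sting1 in each. There were 4 with limma (1299) and 4 with DESeq2 (2338), and 0 with mitochondrial ribosomal RNA as a covariate (168), without Vehicle-sham 2 and 3 (0), and without Vehicle-sham 2 and 5 (0). Leaving out 1 library at a time gave 0 to 11: 0 without Vehicle-sham 2 (14 of all) or 4 (761), 11 without Vehicle-sham 5 (1798), 3 without Vehicle-CCI 4 (2117), 2 without Vehicle-CCI 3, TCF-CCI 2, TCF-CCI 5 or TNF-CCI 2, and 1 in the other 17 cases. For Vehicle-CCI over sham, where 0 were called, DESeq2 called 1 (245 of all) and leaving out 1 library gave 0 to 1, the 1 (Sting1) without Vehicle-CCI 4 (368). For TNF-CCI over sham, where 3 members and 542 of all were called, the count was 0 with mitochondrial ribosomal RNA as a covariate (103) and without Vehicle-sham 2 and 3 (0), 8 without Vehicle-sham 2 and 5 (151), and 1 with only the groups compared (197). Leaving out 1 library gave 0 to 17: 0 without Vehicle-sham 3 (174), Vehicle-sham 4 (0), TNF-CCI 1 (0) or TNF-CCI 5 (0), 1 without Vehicle-sham 1 (929) or 2 (287), and 17 without Vehicle-sham 5 (1107). Where few or no genes of the whole table were called, a count of 0 is no result about the members. Libraries of the same number were not taken as pairs: 27 of 50 such pairs correlated above 0.1, and 13 of 25 libraries correlated best with their own number, where 5 would if the numbers were unrelated. The replicate block gave 4 members for TNF-CCI and 1190 of all. The omission of Vehicle-sham 2 and 5 was chosen after seeing the data, and the cause of these moves was not tested.

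No fold change of Sting1, Ifitm3 or Ifi47 in the called comparisons changed direction under any setting run. The adjusted p of Sting1 ranged from 0.00197 to 0.168 for the mean and from 0.0103 to 0.169 for TNF-CCI, that of Ifitm3 from 0.000988 to 0.138 and that of Ifi47 from 0.00758 to 0.160. In TNF-CCI the call of these genes was lost without single libraries, among them Vehicle-sham 3, Vehicle-sham 4, TNF-CCI 1 or TNF-CCI 5. TD-CCI and TCF-CCI over sham and the 3 comparisons with Vehicle-CCI called 0 of the 40 under every setting run, where they called at most 244, 388 and 1 of all genes. Oasl, Cgas and Zbp1 had the fewest counts of the 40, at 1074, 1236 and 1782 over the 25 libraries.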
